A study of Mus musculus with 8 samples.

Results

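The Hippo pathway and its TEAD factors were followed here through 10 genes: Nf2, Sav1, Lats1, Lats2, Yap1, Wwtr1, Vgll4, Tead1, Tead3 and Tead4. The genes were chosen by name, and each had 1 row among the 23045 genes of the expression table. Mouse hearts had been sequenced as stranded total RNA libraries, 4 of WT (Mettl3 lox/lox) and 4 of Mettl3 KO hearts (Mettl3 lox/lox with αMHC-MerCreMer). METTL3 methylates adenosines of RNA at the N6 position (m6A), and αMHC-MerCreMer is a tamoxifen-activated Cre recombinase driven by a cardiomyocyte promoter, so that other heart cells keep the gene. Per the study's methods, both genotypes were 10 to 16 weeks old and received 100 µg tamoxifen per g body weight on 7 consecutive days. The Cre transgene was carried by the Mettl3 KO mice alone, so its effect and that of the lost gene cannot be told apart. The interval from injection to collection and the sex of the mice are not given in the sources used here.

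In the Hippo pathway, the kinases MST1 and MST2 (genes Stk4 and Stk3) with the scaffold SAV1 activate the kinases LATS1 and LATS2, and NF2 (merlin) recruits LATS kinases to the membrane. Active LATS kinases phosphorylate the coactivators YAP (Yap1) and TAZ (Wwtr1), which are then held in the cytoplasm or degraded. Without this phosphorylation YAP and TAZ enter the nucleus and bind TEAD proteins, which hold the DNA, while VGLL4 competes with them for TEAD binding. In the heart the pathway is known for restraining cardiomyocyte proliferation, and TEAD1 binds the MCAT elements of muscle gene promoters. TEAD1 was also among the factors the study examined at the promoter of Trdn-as, an antisense RNA of the triadin locus. RNA levels carry no information on phosphorylation or on where a protein is in the cell.

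Values are normalized read counts, whole numbers that summed to 2839589 to 2916986 per library and stand for about 2631305 to 3062476 reads. A value of 0 allowed up to 3 reads, which is a value of 2.78 to 3.33 depending on the library and covers counting error only. Mettl3 itself read 105, 133, 118 and 107 in WT hearts and 74, 68, 69 and 78 in Mettl3 KO hearts, a log2 fold change of -0.67 (SE 0.10, adjusted p = 0.000184, limma). All 7 cardiomyocyte markers were detected in every library. Atrial genes summed to 192 in WT replicate 3 and to 384 to 432 in the other WT libraries, and to 598 in Mettl3 KO replicate 1 against 973 to 1392 in the other Mettl3 KO libraries. Of the 598, Nppa made up 452, which was above the 410 of Mettl3 KO replicate 2. The other atrial genes, Bmp10, Myl4, Myl7 and Sln, were lowest in replicate 1 among the Mettl3 KO libraries. The titles number the libraries without saying whether each is a separate animal, and p-values therefore measure only the spread between these libraries.

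None of the 10 genes passed the test for a difference between the genotypes. With limma on log2(value + 1), 0 of 10 had an adjusted p under 0.05, 0 of 10 had an unadjusted p under 0.05, and limma voom also called 0. Of all 20313 genes tested, 7.91% were called. The 10 log2 fold changes lay between -0.19 and 0.03, with a median of -0.07 against -0.01 for all genes tested. Of the 10, 8 were negative and 2 positive, while 9789 of all 20313 genes tested were positive. Nf2, Yap1, Vgll4 and Tead3 changed sign when certain single libraries were left out. For 7 genes (Nf2, Sav1, Lats1, Lats2, Yap1, Wwtr1 and Tead1) the whole 95% interval lay within 0.25 of 0 on the log2 scale. The intervals of Vgll4, Tead3 and Tead4, the genes with the lowest values, were wider. All 10 genes passed the filter on low values, a mean of at least 1.

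**Figure D1:**
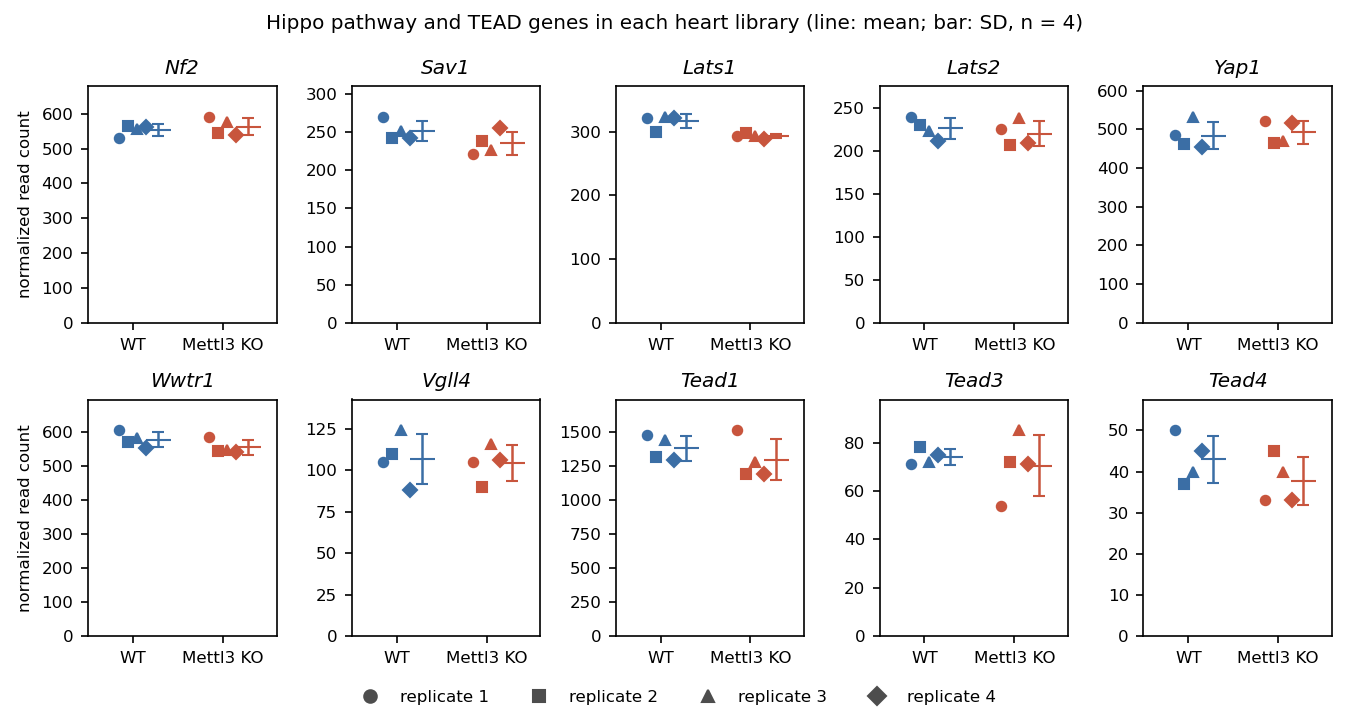
Normalized read counts of the 10 genes in each of the 8 libraries, with points for libraries and the mean and SD of each genotype (n = 4). The genotypes overlap for every gene except Lats1, where the 4 Mettl3 KO libraries sit between 289 and 297 and the 4 WT libraries between 300 and 323.

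Nf2 encodes merlin, the membrane adaptor at the top of the pathway, and lies at chr11:4715845-4799536 (mm39, minus strand, ENSMUSG00000009073). Its values were 530, 566, 557 and 563 in WT hearts and 591, 546, 575 and 539 in Mettl3 KO hearts. The genotypes overlapped, with the lowest library in WT and the highest in Mettl3 KO. The means were 554 ± 16.4 and 562.75 ± 24.4 (SD, n = 4), and the log2 fold change was 0.02 (SE 0.049, 95% interval -0.08 to 0.12, adjusted p = 0.870, limma).

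Sav1 encodes the scaffold that holds the MST kinases to the LATS kinases and lies at chr12:70011786-70033776 (mm39, minus strand, ENSMUSG00000021067). It read 270, 242, 251 and 242 in WT hearts and 221, 239, 226 and 255 in Mettl3 KO hearts. In Mettl3 KO hearts 3 of 4 libraries were below every WT library, and replicate 4 was above 3 of the WT libraries. The log2 fold change was -0.10 (SE 0.067, 95% interval -0.24 to 0.04, adjusted p = 0.479, limma).

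The LATS kinases are the last step before the coactivators. Lats1 lies at chr10:7556978-7592224 (mm39, plus strand, ENSMUSG00000040021) and read 322, 300, 323 and 322 in WT hearts and 293, 297, 293 and 289 in Mettl3 KO hearts. Of the 10 it alone had genotypes that did not overlap, which was the case for 11.5% of all genes tested, and it also had the lowest adjusted p of the 10. Its mean went from 316.75 ± 11.2 to 293 ± 3.27 (SD, n = 4), 92.5% of the WT mean, with a log2 fold change of -0.11 (SE 0.057, 95% interval -0.23 to 0.01, adjusted p = 0.275, limma). The Mettl3 KO libraries varied by 1.11% (coefficient of variation), less than the 5.84% that counting alone would give for such a value. Across 18 alternative settings its log2 fold change stayed between -0.14 and -0.10 and its adjusted p between 0.201 and 0.423.

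Lats2 lies at chr14:57927119-57995845 (mm39, minus strand, ENSMUSG00000021959). It read 240, 231, 223 and 212 in WT hearts and 226, 207, 239 and 210 in Mettl3 KO hearts, and the ranges of the genotypes were nearly the same. The log2 fold change was -0.04 (SE 0.070, 95% interval -0.18 to 0.11, adjusted p = 0.827, limma).

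Of the coactivators, Yap1 lies at chr9:7932000-8004597 (mm39, minus strand, ENSMUSG00000053110) and read 484, 463, 532 and 454 in WT hearts and 521, 464, 469 and 515 in Mettl3 KO hearts. The highest and the lowest library were both WT. Its log2 fold change was 0.03 (SE 0.059, 95% interval -0.09 to 0.15, adjusted p = 0.863, limma). Wwtr1, which encodes TAZ, lies at chr3:57363070-57483331 (mm39, minus strand, ENSMUSG00000027803) and read 604, 570, 583 and 551 in WT hearts and 585, 544, 547 and 540 in Mettl3 KO hearts. In Mettl3 KO hearts 3 libraries were below all of WT, while replicate 1 was above 3 of the WT libraries. Its log2 fold change was -0.06 (SE 0.049, 95% interval -0.16 to 0.04, adjusted p = 0.572, limma).

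Vgll4 encodes the competitor of YAP and TAZ on TEAD proteins and lies at chr6:114837589-114946955 (mm39, minus strand, ENSMUSG00000030315). It read 105, 110, 124 and 88 in WT hearts and 105, 90, 116 and 106 in Mettl3 KO hearts, with all Mettl3 KO libraries inside the WT range. The log2 fold change was -0.03 (SE 0.11, 95% interval -0.25 to 0.20, adjusted p = 0.929, limma).

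Tead1 encodes the TEAD protein best known from heart muscle and lies at chr7:112278525-112506014 (mm39, plus strand, ENSMUSG00000055320). It read 1478, 1314, 1436 and 1289 in WT hearts and 1509, 1190, 1281 and 1191 in Mettl3 KO hearts. In Mettl3 KO hearts 3 libraries were below all 4 WT libraries, and replicate 1 was above all of them. The means were 1379.25 ± 92.0 and 1292.75 ± 150 (SD, n = 4), and the log2 fold change was -0.10 (SE 0.061, 95% interval -0.22 to 0.03, adjusted p = 0.402, limma). The libraries of a genotype varied more than counting would give, by 6.67% in WT and 11.6% in Mettl3 KO hearts against 2.69% and 2.78%. Without Mettl3 KO replicate 1, the library with the fewest atrial transcripts of its genotype, the log2 fold change was -0.17 (SE 0.048) and the adjusted p 0.0256. Without both this library and WT replicate 3, the least atrial of WT, it was -0.15 (adjusted p = 0.103), and it was -0.06 on leaving out WT replicate 1, Mettl3 KO replicate 2 or Mettl3 KO replicate 4 alone (adjusted p of 0.696 to 0.708). Whether the atrial share plays a part in the Tead1 values was not tested.

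Tead3 lies at chr17:28550645-28569791 (mm39, minus strand, ENSMUSG00000002249) and read 71, 78, 72 and 75 in WT hearts and 54, 72, 85 and 71 in Mettl3 KO hearts. Both the lowest and the highest library were Mettl3 KO. Its log2 fold change was -0.09 (SE 0.13, 95% interval -0.35 to 0.17, adjusted p = 0.780, limma), and it was 0.03 without Mettl3 KO replicate 1. Tead4 lies at chr6:128201251-128277786 (mm39, minus strand, ENSMUSG00000030353) and read 50, 37, 40 and 45 in WT hearts and 33, 45, 40 and 33 in Mettl3 KO hearts. The genotypes overlapped, and with values this low a change of the size of its log2 fold change, -0.19 (SE 0.16, 95% interval -0.51 to 0.14, adjusted p = 0.576, limma), could not be told from the spread.

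**Figure D2:**
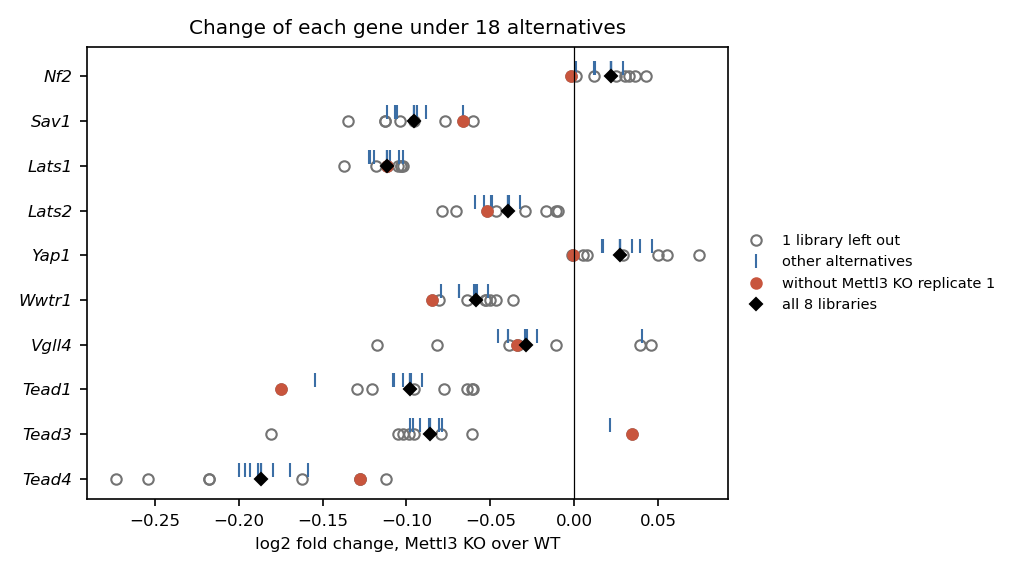
Log2 fold changes of the 10 genes (Mettl3 KO minus WT) with all 8 libraries (diamonds), with 1 library left out (circles, filled for the setting without Mettl3 KO replicate 1) and under the other alternatives (ticks). Of the 180 values under alternatives 1 passed the threshold, Tead1 without Mettl3 KO replicate 1.

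The genes differed in level by about an order of magnitude. Divided by the length of their merged exons, normalized read counts per kb averaged 118 for Wwtr1, 98.5 for Tead1, 81.8 for Nf2, 52.7 for Yap1, 46.2 for Sav1, 41.8 for Lats1, 32.1 for Lats2, 19.6 for Vgll4, 11.2 for Tead4 and 10.8 for Tead3 over the 8 libraries. Each gene was above the next in this order in 8 of 8 libraries, except Tead4 over Tead3, which held in 5 of 8. The ranges over libraries overlapped for Yap1 and Sav1, for Sav1 and Lats1, and for Tead4 and Tead3. Wwtr1 was above 94.7% of 14371 protein-coding genes on this scale and Tead3 above 34.5%. With the longest transcript as the length, Tead1 came first (134 per kb), ahead of Wwtr1 (120) and Nf2 (118), Vgll4 (48.0) moved above Lats2 (43.1) and Lats1 (42.3), and Tead3 moved above Tead4 in every library (ratio of Tead4 to Tead3 of 0.520 to 0.788), so the order among those genes depends on the length used.

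**Figure D3:**
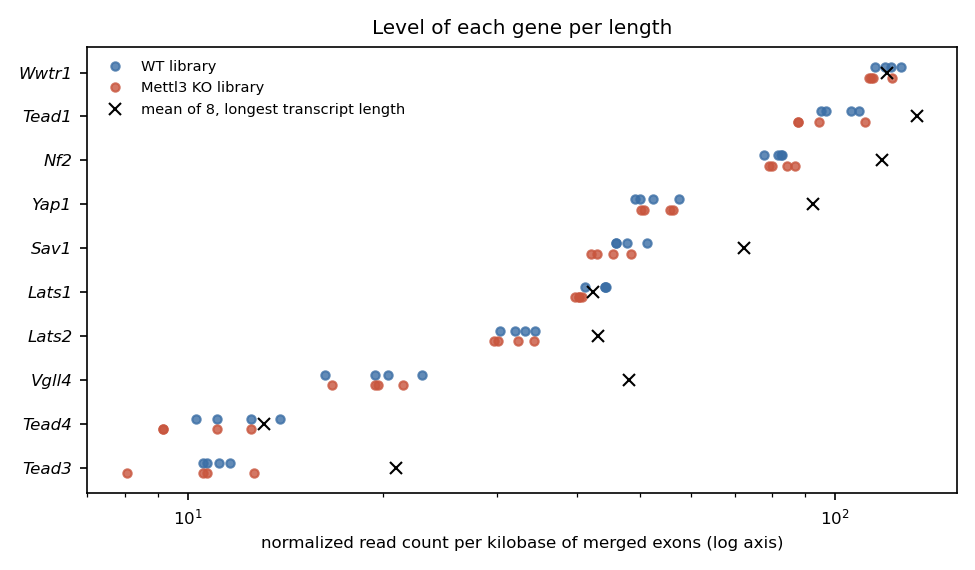
Normalized read count per kb of merged exons for the 10 genes on a log axis, 1 point per library of either genotype, with crosses for the mean over the 8 libraries when the longest transcript is the length. Wwtr1, Tead1 and Nf2 lie highest, and Tead4 and Tead3 lie lowest, with overlapping values per kb of merged exons.

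Tead1 made up most of the TEAD transcripts. Its share of the summed level of Tead1, Tead2, Tead3 and Tead4 per kb was 76.6% ± 1.54 in WT hearts and 77.4% ± 3.42 in Mettl3 KO hearts (n = 4, SD), with 74.4% in the lowest library and 82.3% in the highest, Mettl3 KO replicate 1. The summed level was 133 ± 7.33 per kb in WT and 123 ± 9.23 in Mettl3 KO hearts. With both lengths Wwtr1 (TAZ) was above Yap1 in every library, with a ratio of 2.03 to 2.42 per kb of merged exons and of 1.18 to 1.40 per kb of the longest transcript. The longest Yap1 transcript, of 5282 bases, had 2 exons. The longest coding transcript was 4171 bases for Yap1 and 4697 for Wwtr1. The ratio was not computed with coding lengths, and the order of these genes may depend on the length. The ratio of Lats1 to Lats2 was 1.17 to 1.45 per kb of merged exons but 0.883 to 1.09 per kb of the longest transcript, so which of the LATS genes is higher depends on the length. The share of Tead1 was 72.5% to 80.9% with the longest transcript. The lengths come from an earlier annotation, and the values of the genotypes overlapped for each ratio.

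The transcripts most like Tead1 across the 8 libraries were Cyb5b (Pearson r = 0.976), Maf (r = 0.9745) and Grk3 (r = 0.964), out of 6778 genes whose mean value reached 100. Like Tead1, each of them was highest in Mettl3 KO replicate 1. For Lats1 the most similar were Acsf2 (r = 0.984), Ulk1 (r = 0.982) and Ptprm (r = 0.980). Each of these read lower in all Mettl3 KO libraries than in all WT libraries and, unlike Lats1, passed the test, with log2 fold changes of -0.49, -0.27 and -0.15 and adjusted p of 0.00284, 0.0134 and 0.0329 (limma). The correlations are descriptions over 8 points that share genotype and library, and the genes were picked as the highest of many.

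Because METTL3 writes m6A, the letters GGACT, the most usual form of its preferred sequence, were counted in the longest coding transcript of each gene. Vgll4 held the most (2.46 per kb), followed by Sav1 (1.98) and Tead3 (1.44), and Nf2 the fewest (0.636). The median of the 10 was 0.847 per kb against 1.05 for 14384 tested genes, and 4 of 10 were above it. The letters mark possible positions only, and m6A itself was not measured in these libraries.

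Beyond the 10, a list of 36 further pathway genes was read from the same fit. Of these 34 were in the table and tested, and 3 were called (8.82%, against 7.91% of all genes), 2 higher and 1 lower, with a median log2 fold change of 0.00. The share is near that of all genes. Tnik, a kinase of the MAP4K group that acts upstream of LATS, read 518, 472, 565 and 479 in WT hearts and 440, 381, 405 and 371 in Mettl3 KO hearts, every Mettl3 KO library below every WT library. Its log2 fold change was -0.35 (SE 0.064, adjusted p = 0.00114, limma), and it was called in all 18 alternatives.

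Slmap, a membrane protein of the STRIPAK phosphatase complex that switches off MST kinases, read 926, 1088, 1027 and 1105 in WT hearts and 1120, 1207, 1276 and 1183 in Mettl3 KO hearts, without overlap. The log2 fold change was 0.21 (SE 0.052, adjusted p = 0.0138, limma), and the call was lost without WT replicate 1 (adjusted p = 0.0715), Mettl3 KO replicate 2 (0.0561) or Mettl3 KO replicate 3 (0.0842). Mob1b, a partner that LATS kinases need for activation, read 404, 407, 356 and 392 in WT hearts and 433, 452, 435 and 447 in Mettl3 KO hearts, also without overlap. Its log2 fold change was 0.18 (SE 0.055, adjusted p = 0.0444, limma), and it was not called in 11 of 18 alternatives, among them those without any 1 of the WT libraries (adjusted p of 0.0530 to 0.148) or without Mettl3 KO replicate 2, 3 or 4 (0.119, 0.0894 and 0.103).

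The MST kinases and Mob1a did not pass the test. Stk3 (MST2) read 157, 232, 189 and 210 in WT hearts and 181, 193, 204 and 182 in Mettl3 KO hearts, a log2 fold change of -0.04 (SE 0.093). Stk4 (MST1) read 228, 250, 243 and 228 against 235, 236, 238 and 247, a log2 fold change of 0.01 (SE 0.063). Mob1a, the paralogue of Mob1b, read 295, 294, 289 and 267 against 317, 279, 303 and 289, a log2 fold change of 0.05 (SE 0.062). All 3 genes overlapped between the genotypes. Tead2, the remaining TEAD gene, read 41, 36, 36 and 42 in WT hearts and 32, 33, 29 and 31 in Mettl3 KO hearts without overlap, with a log2 fold change of -0.30 (SE 0.15, adjusted p = 0.278, limma).

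By role, 2 of 14 upstream kinases and MOB proteins (Tnik and Mob1b) and 1 of 5 STRIPAK genes (Slmap) were called, against 7.91% of all genes. Called were also 0 of 10 scaffolds and junction proteins, 0 of 3 genes for YAP and TAZ degradation, and 0 of 2 other TEAD and VGLL genes. Besides the 3 called genes, limma gave an unadjusted p under 0.05 for Map4k2, Mink1, Fat4, Limd1, Btrc and Vgll3. The share of all genes under this unadjusted threshold was not computed, so these genes are named without a background. Over the whole list limma voom called 2 genes. Of the other MAP4K kinases on the list, Map4k2 had a log2 fold change of -0.24 (adjusted p = 0.0996), Mink1 of -0.18 (adjusted p = 0.0676), Map4k3 of -0.06 (adjusted p = 0.686) and Map4k4 of -0.02 (adjusted p = 0.889, limma), and Mink1 was called in 4 of 18 alternatives.

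**Figure D4:**
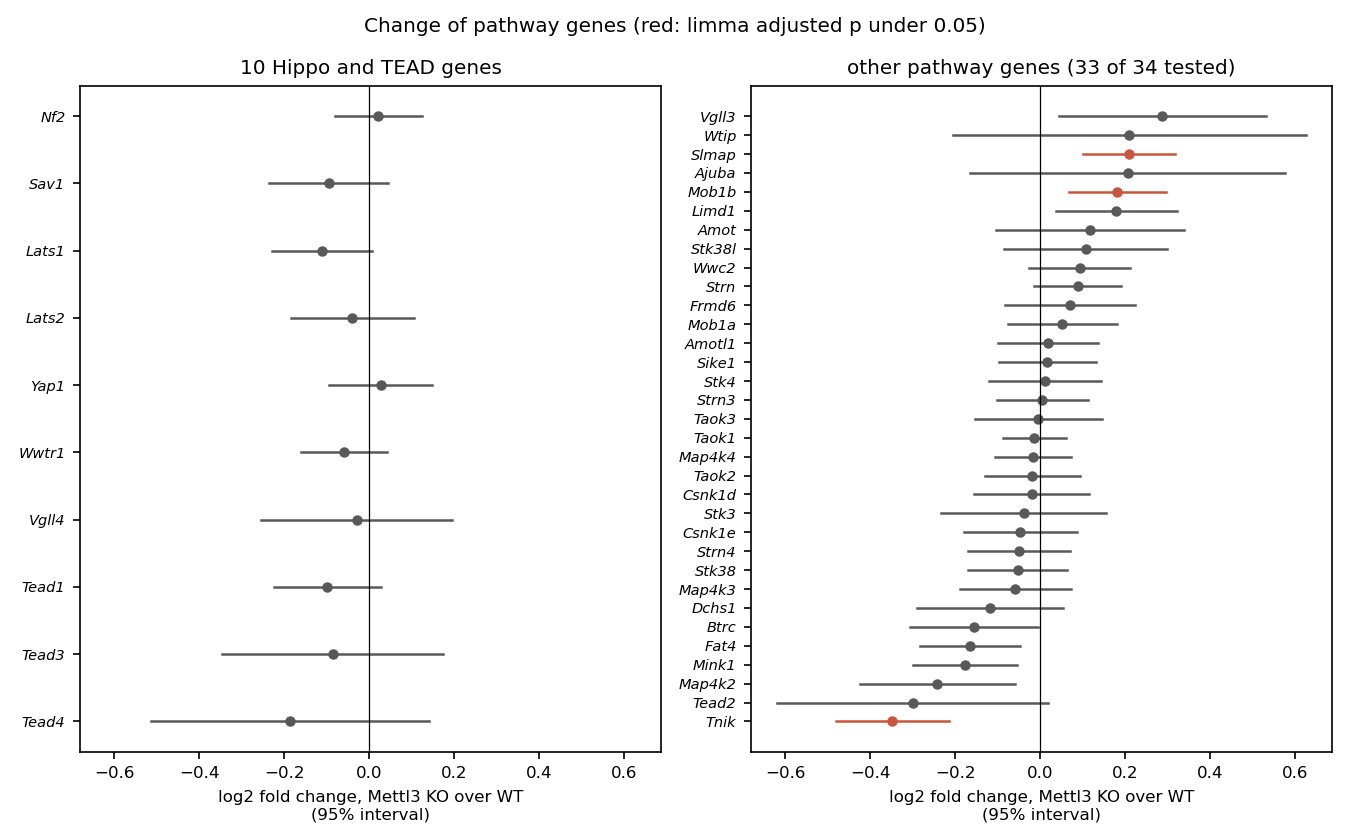
Log2 fold changes (Mettl3 KO minus WT, points) with 95% intervals (bars) of the 10 genes and of 33 further pathway genes, red where called, Wwc1 being left out because its values of 0 to 4 give a very wide interval. Tnik lies lowest and Slmap and Mob1b are the genes called higher.

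Transcripts that YAP, TAZ and TEAD are known to switch on in other cells were read from a list of 21 target genes, of which 20 were tested. Of these 8 were called, all higher in Mettl3 KO hearts (40.0%, against 4.72% of all genes called higher), with a median log2 fold change of 0.19. Another 12 did not pass the test, and 9 of the 20 did not overlap between the genotypes, against 11.5% of all genes tested. Lats2, followed above as a pathway gene, belongs to the target signature behind this list but was left out of it. It did not pass the test (log2 fold change -0.04, adjusted p = 0.827, limma), and the counts for the list do not include it. Ccn2, the matrix protein CTGF, read 226, 179, 206 and 230 in WT hearts and 297, 371, 398 and 415 in Mettl3 KO hearts, a log2 fold change of 0.81 (SE 0.091, adjusted p = 4.82e-06, limma). Tgfb2, a secreted growth factor, read 110, 106, 111 and 115 against 194, 198, 187 and 196, a log2 fold change of 0.80 (SE 0.075, adjusted p = 4.79e-07, limma).

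Both rose in every Mettl3 KO library. Ankrd1, a sarcomere-associated repressor made in stressed heart muscle, read 808, 878, 677 and 889 in WT hearts and 1192, 1076, 1206 and 1099 in Mettl3 KO hearts, a log2 fold change of 0.50 (SE 0.065, adjusted p = 2.58e-05, limma). Ccdc80, a matrix protein, read 488, 522, 541 and 523 against 775, 643, 762 and 729, a log2 fold change of 0.48 (SE 0.056, adjusted p = 7.49e-06, limma). Neither overlapped between the genotypes.

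Dock5, an exchange factor for Rac, read 209, 253, 243 and 212 in WT hearts and 306, 261, 293 and 309 in Mettl3 KO hearts, a log2 fold change of 0.35 (SE 0.075, adjusted p = 0.00409, limma). Rbms3, an RNA-binding protein, read 234, 197, 219 and 227 against 279, 274, 258 and 275, a log2 fold change of 0.31 (SE 0.067, adjusted p = 0.00490, limma). Neither overlapped between the genotypes, and both were called, like Ccn2, Tgfb2, Ankrd1 and Ccdc80, in all 18 alternatives.

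The last 2 calls were less steady. Arhgef17 read 592, 622, 605 and 561 in WT hearts and 788, 656, 670 and 649 in Mettl3 KO hearts, a log2 fold change of 0.21 (SE 0.058, adjusted p = 0.0245, limma). It was not called in 5 of 18 alternatives, which are those without WT replicate 1 (adjusted p = 0.0652) or 4 (0.0971), without Mettl3 KO replicate 1 (0.0726) or 3 (0.0569), and without both least atrial libraries (0.0930). Igfbp3, a binding protein of insulin-like growth factors, read 77, 91, 78 and 112 against 80, 133, 158 and 159, overlapping in Mettl3 KO replicate 1. Its log2 fold change was 0.53 (SE 0.16, adjusted p = 0.0480, limma), and it was not called in 11 of 18 alternatives, including every setting without 1 of WT replicates 1, 2 and 3 or of Mettl3 KO replicates 2, 3 and 4 (adjusted p of 0.102 to 0.215).

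Not all of the list rose. Ccn1, the matrix protein CYR61 and among the most used readouts of YAP, read 191, 198, 172 and 162 in WT hearts and 185, 142, 159 and 169 in Mettl3 KO hearts, a log2 fold change of -0.14 (SE 0.088, adjusted p = 0.391, limma). Axl, a receptor tyrosine kinase, read 413, 341, 409 and 378 against 481, 389, 479 and 423, a log2 fold change of 0.20 (SE 0.071, adjusted p = 0.0951, limma), and was called without Mettl3 KO replicate 2 (adjusted p = 0.0444). Both genes overlapped between the genotypes. Foxf2, at 0 to 2 in every library, was not tested.

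**Figure D5:**
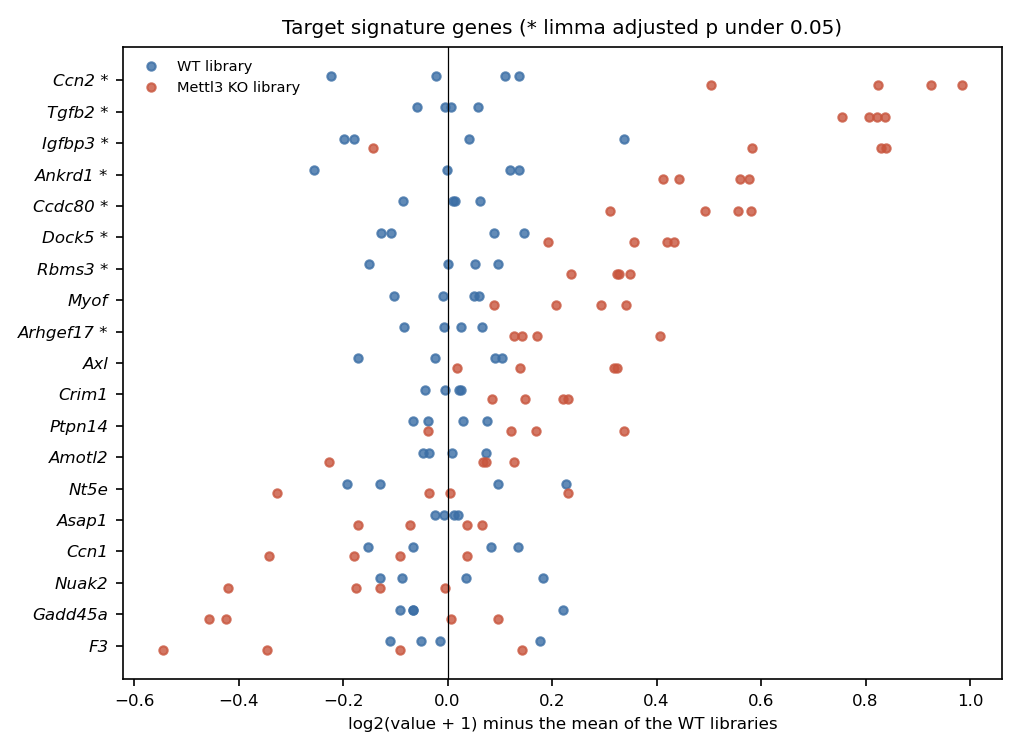
Log2(value + 1) of 19 target genes in each library minus the mean of the WT libraries, 1 point per library, an asterisk marking the 8 called genes, with Fjx1 left out because its values are 0 to 5. On average Ccn2 and Tgfb2 lie farthest above the WT values. Ccn1 overlaps its WT values, with Mettl3 KO replicates 2 and 3 below all of them.

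Other heart cells express these target genes too. The fibroblast markers moved with them, with 7 of 8 called higher (4.72% of all genes were) and summed levels of 3648 to 4172 in WT hearts and 4711 to 5671 in Mettl3 KO hearts, and the defining marker Tcf21 alone did not pass the test (53, 35, 43 and 48 against 51, 50, 56 and 59). Endothelial markers went the other way, with 4 of 8 called lower (3.19% of all genes were) and sums of 4794 to 5038 in WT hearts and 4169 to 4575 in Mettl3 KO hearts, and of these calls Fabp4 was lost in 7 and Cdh5 in 2 of 18 alternatives. The atrial genes Nppa, Sln, Myl4 and Myl7 were called higher, of which Myl4 and Myl7 each lost the call in 3 of 18 alternatives. Bmp10, also called, was at 0 in all 4 WT libraries and in Mettl3 KO replicate 1, and passed the filter on low values only through the other Mettl3 KO libraries. It lost the call in 1 of 18 alternatives. The part of these cell types in the levels of the target genes or of the 10 pathway genes was not tested, and in whole hearts fewer cells of a type and less RNA per cell cannot be told apart.

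Muscle genes with a known MCAT element, the sequence bound by TEAD proteins, were read as a list of 4, of which 2 were called higher (against 4.72% of all genes). Of these calls Myh7 was lost in 5 and Nppb in 1 of 18 alternatives. Nppb, the natriuretic peptide BNP, read 185, 217, 181 and 227 in WT hearts and 324, 257, 303 and 238 in Mettl3 KO hearts without overlap, a log2 fold change of 0.46 (SE 0.092, adjusted p = 0.00211, limma), and the call was lost without both least atrial libraries (adjusted p = 0.0505). Myh7, the slow myosin heavy chain, read 1056, 971, 407 and 1127 against 1252, 1002, 2196 and 1787, a log2 fold change of 0.85 (SE 0.23, adjusted p = 0.0228, limma). The genotypes overlapped for Myh7, and it was not called without WT replicate 3 (log2 fold change 0.50, adjusted p = 0.0513), without Mettl3 KO replicate 3 (0.152) or 4 (0.115), or without both least atrial libraries (0.0801).

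Acta1, skeletal actin, read 252, 295, 181 and 247 in WT hearts and 326, 214, 335 and 309 in Mettl3 KO hearts, a log2 fold change of 0.28 (adjusted p = 0.199, limma), which was 0.43 (called, adjusted p = 0.0354) without Mettl3 KO replicate 2, 0.14 (adjusted p = 0.545) without WT replicate 3 and 0.09 (adjusted p = 0.776) without both least atrial libraries. Tnnt2, cardiac troponin T, read 2797, 2642, 2566 and 2872 against 3003, 2854, 2901 and 2780, a log2 fold change of 0.09 (adjusted p = 0.192, limma). Trdn-as (D830005E20Rik) read 504, 534, 553 and 563 in WT hearts and 512, 516, 500 and 519 in Mettl3 KO hearts, with a log2 fold change of -0.07 (SE 0.050, adjusted p = 0.466, limma). The genotypes overlapped for all 3 genes.

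Promoters were searched for the letters GGAATG, the core of the TEAD motif, on either strand, CATTCC being the same letters read from the other strand. Windows ran from 250 bases before to 50 after a start (RefSeq, GRCm38.p6, a build other than that of the locations above). Of the 8 Hippo and TEAD genes with an entry, 6 held the letters (75.0%, against 16.6% of the 27025 genes searched). Of the 13 promoters of these genes 8 did (61.5%, against 14.7% of the 32851 promoters searched). Promoters of 1 gene can overlap, as for Wwtr1 and Tead3, and the same Wwtr1 match was counted in more than 1 of them. Lats1 and Nf2 held none in these windows, and Tead1 and Tead4 had no entry. Of the 4 target genes that rose and had an entry, 1 held the letters (Ankrd1), and of the 9 that did not pass the test, 5 did (Amotl2, Ccn1, Axl, Crim1 and Ptpn14). All 4 muscle genes held them, but these genes were listed for a known MCAT element, so this count follows from the choice of the list. A match describes the letters and is not a measured site. The stretches around the match are printed for the coactivators, the competitor, the scaffold, Lats2 and Tead3, then for Ankrd1 and Ccn1 as targets that did and did not pass the test and for the called muscle genes, with the matched letters in capitals, 5′ to 3′ on the strand of the gene.
Yap1 (chr9:8004720-8004749, minus strand): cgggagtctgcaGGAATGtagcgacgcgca
Wwtr1 (chr3:57576029-57576058, minus strand): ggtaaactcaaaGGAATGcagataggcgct
Vgll4 (chr6:114969268-114969297, minus strand): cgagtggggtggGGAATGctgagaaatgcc
Sav1 (chr12:69987091-69987120, minus strand): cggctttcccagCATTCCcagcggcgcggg
Lats2 (chr14:57746102-57746131, minus strand): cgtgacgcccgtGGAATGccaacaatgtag
Tead3 (chr17:28350706-28350735, minus strand): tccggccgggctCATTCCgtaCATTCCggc
Tead3 (chr17:28350581-28350610, minus strand): aggtaagcccggGGAATGcaactcggaggc
Tead3 (chr17:28350970-28350999, minus strand): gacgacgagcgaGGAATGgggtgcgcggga
Ankrd1 (chr19:36120037-36120066, minus strand): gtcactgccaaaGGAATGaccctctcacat
Ankrd1 (chr19:36119950-36119979, minus strand): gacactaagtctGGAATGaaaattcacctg
Ccn1 (chr3:145650071-145650100, minus strand): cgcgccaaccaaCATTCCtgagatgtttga
Nppb (chr4:147985783-147985812, plus strand): gctcagccggcaGGAATGcagctgataaat
Myh7 (chr14:54994810-54994839, minus strand): ctagtgagccgtGGAATGttagagatattt
Among the 10 genes the matches lay 82 (Vgll4) to 182 (Tead3) bases before a start, except for Lats2 and another match in Tead3, which lay 5 and 3 bases after it. Ankrd1 held the letters 210 and 123 bases before its start and rose, and Ccn1 held them 103 bases before its start and did not pass the test.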

How the data were processed

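The 10 genes and all lists were chosen with earlier results of these data known. Per the study's methods and the submitters' processing notes, the authors trimmed stranded single-end reads (Trimmomatic 0.39), aligned them to mm39 (STAR 2.7.11a), removed duplicates (Picard 3.1.1), counted reads over exons (featureCounts 2.0.4) and normalized with DESeq2 1.36.0. The deposited values are a score: normalized read counts rounded to whole numbers, so no test for raw counts was applied. Removal of duplicates from single-end reads can lower abundant transcripts. The reads behind each library were estimated from the spacing of its low values.

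The labels gave the groups and replicate numbers, 4 libraries each. Genes whose mean value reached 1 (20313 of 23045, 2732 being left out) entered a limma fit (limma 3.58.1, R 4.3.3) of log2(value + 1) on genotype alone, with the variance trended on the mean. P-values were two-sided and adjusted over all tested genes by Benjamini-Hochberg, with 0.05 as the threshold for a call. Fold changes on this scale understate those of low genes. The fit and the read estimate were tested on simulated data. Alternatives were other scalings (with the TMM factors computed by a script written for this purpose), voom, other pseudocounts and filters, a block for replicate number, and each library left out. Leaving out both least atrial libraries, and the longest transcript as the length behind levels and ratios, were added after seeing the data.

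Named were all 10 genes, every pathway or target gene with a call, Stk3, Stk4, Mob1a, Mob1b, Tead2, Ccn1, Ccn2, Ankrd1 and Axl, 4 muscle genes, Mettl3, Trdn-as and the 3 genes most like Tead1 and Lats1. Map4k2, Map4k3, Map4k4, Mink1, Fat4, Limd1, Btrc, Vgll3, the plotted exceptions and the untested Foxf2 were named after their values were seen. Locations are those of the table (mm39). Lengths came from GENCODE M21, an earlier annotation whose coordinates were not used. Its gene identifiers covered 96.2% of the tested genes. Of the 36 pathway genes listed, Vgll1 and Vgll2 were not analysed here.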

Additional observations from a re-analysis of the deposited data

Results flagged for a closer look

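In 62 groups of 4 libraries (31 named genes in each genotype), 3 held a library far from the other 3 by Dixon's ratio of gap to range (above its 95% critical value), where chance alone would mark about 3.1. Lats1 in WT hearts had a ratio of 0.957, with replicate 2 at 300 and the others at 322 to 323. Wwtr1 in Mettl3 KO hearts had a ratio of 0.844, with replicate 1 at 585 and the others at 540 to 547. Arhgef17 in Mettl3 KO hearts had a ratio of 0.849, with replicate 1 at 788 and the others at 649 to 670.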

How the results depend on the processing

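With 18 alternatives, the count of called genes among all tested ranged from 1019 to 1596 when 1 library was left out (lowest without Mettl3 KO replicate 3) and from 1176 to 1687 otherwise, against 1607 reported. The count among the 10 genes ranged from 0 to 1 with a library left out, and was 0 in the other alternatives. Among pathway genes it ranged from 1 to 4 with a library left out (1 without WT replicate 1, Mettl3 KO replicate 2 or Mettl3 KO replicate 3) and from 2 to 3 otherwise, and among target genes from 6 to 9 and from 7 to 9. The cause of these shifts was not tested, beyond the smaller number of libraries. Of the 10 genes, 6 kept the sign of their log2 fold change in every setting and 4 (Nf2, Yap1, Vgll4 and Tead3) took both signs. With the replicate number as a replicate block, 1346 genes were called, Axl passed (adjusted p = 0.0314), and Mob1b (0.0600) and Myh7 (0.0722) did not. Libraries with the same number did not deviate together over 12027 genes (r = 0.052, 0.042, -0.041 and 0.088). The labels do not say whether the samples are paired, and these values cannot settle it, since they would miss pairing that shows in few genes. Low values limit Tead3, Tead4 and Tead2 (29 to 85), and Wwc1 (0 to 4), Fjx1 (0 to 5) and the untested Foxf2 (0 to 2). No scaling moved the median of all genes by more than 0.1 on the log2 scale.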

Other observations

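Marker lists of other cell types were read for their level only. Smooth muscle and pericyte markers summed to 4719 to 5136 in WT and 4381 to 4680 in Mettl3 KO hearts. Of these 1 of 8 was called, lower (3.19% of all genes were called lower), which was Abcc9 (log2 fold change -0.20). Rgs5, Kcnj8, Cspg4 and Pdgfrb also had negative log2 fold changes. Those of Tagln (0.41), Myh11 (0.17) and Acta2 (0.14) were positive, and none of these genes besides Abcc9 passed the test. Macrophage markers summed to 1139 to 1385 and 1153 to 1386, and lymphocyte markers to 14 to 27 and 9 to 20. Epicardial and mesothelial markers, the cells of the heart's outer layer, summed to 104 to 148 in WT and 127 to 198 in Mettl3 KO hearts, with 2 of 6 called higher (4.72% of all genes were), of which Lrrn4 lost the call in 5 and Upk3b in 2 of 18 alternatives. Cardiomyocyte markers summed to 22727 to 23785 and 21097 to 23690, with 1 of 7 called, lower (3.19% of all genes were). The called gene was Ryr2, with a mean of 9884.75 in WT and 8431.75 in Mettl3 KO hearts and a log2 fold change of -0.23. The other cardiomyocyte markers had log2 fold changes above 0, and the median of the 7 was 0.05.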
